A study of Mus musculus with 3 samples.

Results

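The proteasome genes described here were 41 mouse genes for the subunits, dedicated cap chaperones and activators of the proteasome, found on the arrays by matching the transcript accession of each non-control probe to its RefSeq symbol. Of these, 40 had a probe, 49 probes in all on 58 spots, and no probe carried an accession of Psme2. The test across all genes covered 34 of the 41 among 7424 genes or unnamed transcripts. Skeletal muscle labelled SOL, read here as the soleus, a postural hindlimb muscle rich in slow fibres, was taken from male C57BL/6 mice aged 8 weeks on a regular chow diet. The 3 KO samples carried the genotype Mettl21cLacZ/LacZ, homozygous for a LacZ allele of the protein lysine methyltransferase gene Mettl21c, and the 3 WT samples were wildtype at it. The labels give no tissue restriction of the allele and do not say whether animals were littermates or pooled. Each of 3 arrays on 1 slide held 1 WT sample in the green dye Cy3 and 1 KO sample in the red dye Cy5, and no array had the dyes exchanged, so a probe's preference for a dye and the genotype cannot be told apart.

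The proteasome is the main protease of the cytosol and nucleus for proteins tagged with ubiquitin. Its core is a barrel of stacked alpha and beta rings, with the cutting sites on the inner face of the beta rings, and a regulatory cap of ATPases, base subunits and a lid binds, deubiquitinates, unfolds and feeds the substrate into it. Interferon exchanges the catalytic beta subunits for immunoproteasome versions, and other activators can bind the core in place of the cap. In skeletal muscle this system is best known for the breakdown of contractile proteins during atrophy.

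The promoters of the members with the smallest unadjusted p in each direction are shown as the sequence context of the values that follow. Of the 41 genes, 35 matched the RefSeq promoter table of build GRCm38.p6, with 38 start sites, and Psmb1, Psmb2, Psmb7, Psmc3, Psmd3 and Psmd7 did not. Each sequence is the 250 bases upstream of a start site, 5′ to 3′ on the gene's strand. Psme3, an activator, is at chr11:101315963-101316212 on the plus strand, and Psmb3, a core beta subunit, is at chr11:97703184-97703433 on the plus strand. Psmd6, a lid subunit, is at chr14:14120946-14121195 on the minus strand, and Psmc2, a cap ATPase, is at chr5:21785025-21785274 on the plus strand, shown for the first of its 2 listed start sites. Capitals mark matches on either strand to any of 4 short motifs, which are TGANNNNGC (the core of the antioxidant response element), CCAAT (the CCAAT box), GGGCGG (a GC box) and CCGGAA (the core bound by ETS factors).
Psme3: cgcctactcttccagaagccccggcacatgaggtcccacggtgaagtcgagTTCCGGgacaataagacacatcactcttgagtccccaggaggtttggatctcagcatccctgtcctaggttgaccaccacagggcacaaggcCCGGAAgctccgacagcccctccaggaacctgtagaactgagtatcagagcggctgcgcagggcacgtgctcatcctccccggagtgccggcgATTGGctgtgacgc
Psmb3: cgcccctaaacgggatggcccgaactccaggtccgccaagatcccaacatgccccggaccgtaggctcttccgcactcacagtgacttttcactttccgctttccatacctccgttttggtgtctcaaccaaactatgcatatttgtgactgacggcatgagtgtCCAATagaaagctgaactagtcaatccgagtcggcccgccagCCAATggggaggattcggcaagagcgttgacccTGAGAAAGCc
Psmd6: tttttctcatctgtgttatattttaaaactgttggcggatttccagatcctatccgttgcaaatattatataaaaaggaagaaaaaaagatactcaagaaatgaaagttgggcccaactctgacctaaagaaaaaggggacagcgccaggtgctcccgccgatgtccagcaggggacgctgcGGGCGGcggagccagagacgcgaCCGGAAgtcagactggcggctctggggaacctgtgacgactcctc
Psmc2: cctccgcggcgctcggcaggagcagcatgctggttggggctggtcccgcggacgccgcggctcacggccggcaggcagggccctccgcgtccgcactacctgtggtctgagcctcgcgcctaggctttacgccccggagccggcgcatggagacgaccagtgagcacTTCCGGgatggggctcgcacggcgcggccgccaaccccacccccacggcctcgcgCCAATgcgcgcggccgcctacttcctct

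The Psme3 window held CCGGAA at 2 places and CCAAT at 1, and the Psmb3 window held CCAAT at 2 places and TGANNNNGC at 1. The Psmd6 window held GGGCGG and CCGGAA once each, and the Psmc2 window held CCAAT and CCGGAA once each. No match overlapped another, and none of the 4 motifs was common to the 4 windows. Over all 38 member windows CCGGAA was present in 42.1% against 12.03% of 32851 windows of the same length in the table, and GGGCGG in 57.9% against 32.7%. TGANNNNGC, the letters of the element through which the factors Nfe2l1 and Nfe2l2 act on proteasome genes, was present in 36.8% against 35.2%. CCAAT was present in 34.2% against 33.8%. Member windows were richer in G and C, with a median of 57.4% against 52.4%, and the part of base composition in these shares was not tested. The motifs were chosen, among others tried, with their shares in view, and a match describes letters in a window, not a bound site.

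The arrays differed in quality before any comparison of genotypes. Of 59305 non-control spots, 20.4% to 23.6% exceeded background clearly in the WT channel and 22.5% to 22.9% in the KO channel. Between arrays the ratios correlated at 0.206 to 0.350 across genes, where genes are not independent replicates. Mettl21c had log2 ratios of KO over WT of -2.93, -1.96 and -2.46 on arrays 1 to 3, with a mean of -2.45 (SD 0.48, n = 3, limma adjusted p = 0.0175), so the target was the lower in KO on every array, as labelled. In KO its signal exceeded background clearly on array 1 alone, and without array 3 its adjusted p was 0.0557. Slow fibre markers were well above background on all arrays for 8 of 9 genes and fast fibre markers for 8 of 8. Array 3 departed from the others on its left side. Spot intensities of array 3 correlated with those of array 1 at 0.495 in columns 1 to 20, at 0.580, 0.651 and 0.852 in the following blocks of columns, and at 0.921 to 0.949 in columns 81 to 164. Array 2 correlated with array 1 at 0.960 to 0.979 in every block. In the left columns the next row of array 3 also correlated with array 1, at 0.380 in columns 1 to 20, falling to 0.0737 in columns 61 to 80. On array 3, 13.7% of spots well above background in columns 1 to 80 differed by more than 1 log2 unit from their mean on arrays 1 and 2, against 4.36% in columns 81 to 164.

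This touched the proteasome probes directly, since 31 of their 58 spots lay in columns 1 to 80. Of the 34 tested genes, 15 were read from the left columns, 18 from the right, and Psme1 from both. The 3 tested genes whose array 3 intensity departed by more than 1 log2 unit, Psmd3 (-3.85), Psmd4 (-3.57) and Psmb8 (-1.47), all lay on the left, and 0 of the 18 right-hand genes did. The array 3 ratio of these 3 genes is close to a reading of background. All 3 were tested through the KO channel alone, as their WT signal on array 3 was not well above background. Without the left columns of array 3, the mean log2 ratio was -0.31 in place of -0.18 for Psmb1, 0.12 in place of 0.04 for Psmd2, -0.15 in place of -0.20 for Psmc2, -0.16 in place of -0.20 for Psmd6 and 0.23 in place of 0.20 for Psmb4. For Psmb2, Psmb6, Psmb7, Psma7 and Psmc3 it was 0.18, -0.0068, -0.22, -0.014 and -0.055, against 0.16, 0.0040, -0.22, -0.062 and -0.070 with them. For Psme1 it was -0.056 against -0.077, and the values of the other left-hand genes stand beside their results.

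**Figure D1:**
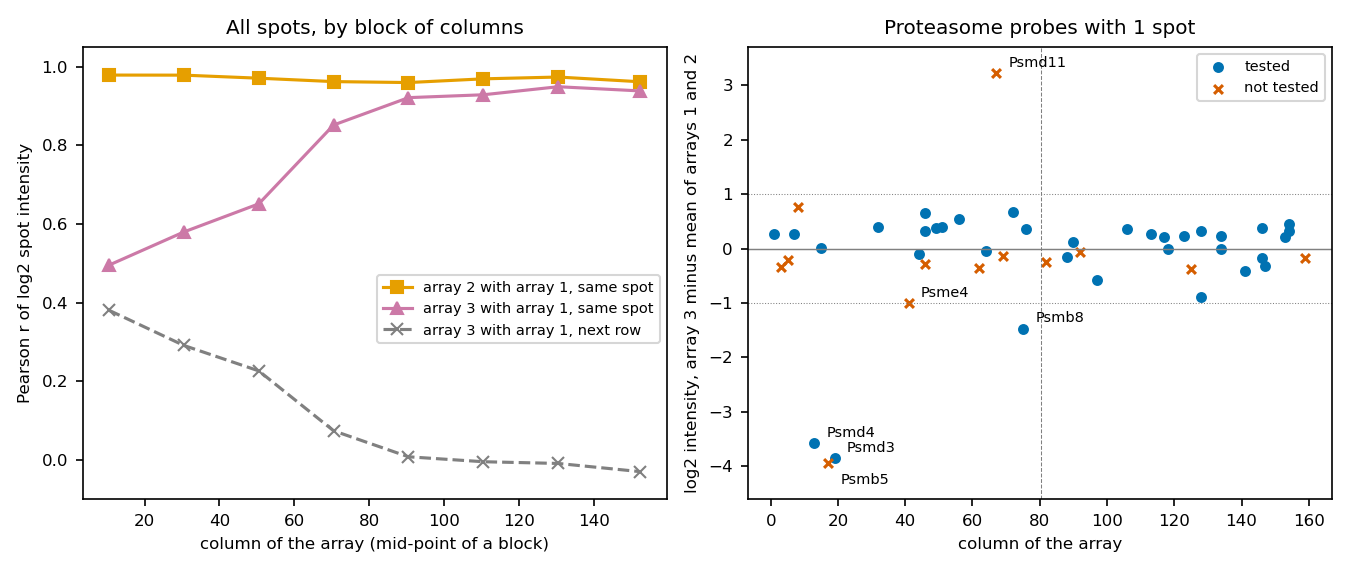
Left, Pearson r of log2 spot intensity with array 1 by block of array columns, for the same spot on array 2, the same spot on array 3 and the next row of array 3. Right, log2 intensity on array 3 minus the mean of arrays 1 and 2 for each proteasome probe with 1 spot, by its column (dashed line after column 80, dotted lines at 1 log2 unit); Psmd3, Psmd4 and a second probe of Psmb5 sit below -3, all in the left columns.

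No proteasome gene changed between genotypes at an adjusted p under 0.05. The limma fit over all 7424 genes called 0 of 34 members higher in KO (0% of all genes were) and 0 lower (0.0404% of all genes were, which is 3 genes). At an unadjusted p under 0.05, 6 members were higher in KO, which is 17.6% against 5.9% of all genes, and 3 were lower, 8.82% against 7.53%. The 6 were Psma1, Psma5, Psmb3, Psmb4 and Psmb5 of the core and the activator Psme3, and the 3 were Psmb7 of the core and Psmc2 and Psmd6 of the cap. Of the 6, Psma1, Psma5, Psmb3 and Psmb5 were read in columns 128, 97, 106 and 153, and Psmb4 and Psme3 in columns 1 and 7. The 3 lower, Psmb7, Psmc2 and Psmd6, were read in columns 64, 32 and 72. On array 3 every tested right-hand member but Psma6 and Psmc4 had a ratio above 0, while the left-hand ones had both signs. The part of position in these counts was not tested. Leaving out arrays 1, 2 and 3 in turn gave 5, 2 and 4 members higher and 1, 1 and 4 lower. The last of these tested 40 members. The shares higher were 14.7%, 5.88% and 10%, against 5.73%, 4.28% and 5.45% of all genes. The shares lower were 2.94%, 2.94% and 10%, against 6.21%, 4.5% and 8.27% of all genes. From the processed signals 2 were higher (5.88%, against 5.29% of all genes) and 1 lower (2.94%, against 5.56%). With no background subtraction 3 were higher (8.82%, against 6.07% of all genes) and 0 lower (against 5.55%). The median log2 ratio was 0.01 over the members, with -0.02, -0.00 and 0.09 on arrays 1 to 3, and -0.00 over all genes. Mean ratios ran from -0.22 to 0.43, and 19 of 34 were above 0 (55.9%, against 49.1% of all genes). The median half-width of the 95% interval of a member's ratio, with no adjustment over genes, was 0.19. Changes smaller than about that size could not be told from 0 with 3 arrays. Larger ones also missed the adjusted threshold, such as Psme3 at 0.43 and Psmb5 at 0.33. The ratio was above 0 on all 3 arrays for 9 members (26.5%, against 17.5% of all genes) and below 0 on all 3 for 5 (14.7%, against 18.3%). The 9 included Psmd4, tested through the KO channel alone, and the 5 included Psme4, tested through the WT channel alone. Both read near background on some arrays. A filter passed through 1 channel favours the sign counted here, so these 2 signs are not evidence of direction. With columns 1 to 80 of array 3 left out, 39 members could be tested, 0 were called and the median was 0.02. At an unadjusted p under 0.05, 8 of them were higher (20.5%, against 6.75% of all genes) and 2 lower (5.13%, against 6.97%). The processed signals summed over 7 red blood cell markers were 44696, 53945 and 32869 in WT. In KO they were 78569, 77837 and 129846, higher on each array. Only 3 of the 7 were tested, with means of 0.77 (Hba-a1), 0.21 (Alas2) and 0.15 (Hbb-b1), and 0 passed the adjusted threshold. Hbb-b1 read -0.23 on array 2. The sum of adipocyte markers was also higher in KO on each array. The part of either cell type in the proteasome values was not tested.

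These counts depended on how intensity was handled. The proteasome probes were bright, with a median log2 intensity of 8.47 against 6.86 for all genes. When each array was only centred, with no fit of the ratio on intensity, the median over the members was -0.27 and over all genes -0.01, and 3 members were called higher and 14 lower, where 35.8% of all genes were called. At an unadjusted p under 0.05 that setting had 5 members higher (14.7%, against 21.9% of all genes) and 19 lower (55.9%, against 28.2%).

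**Figure D2:**
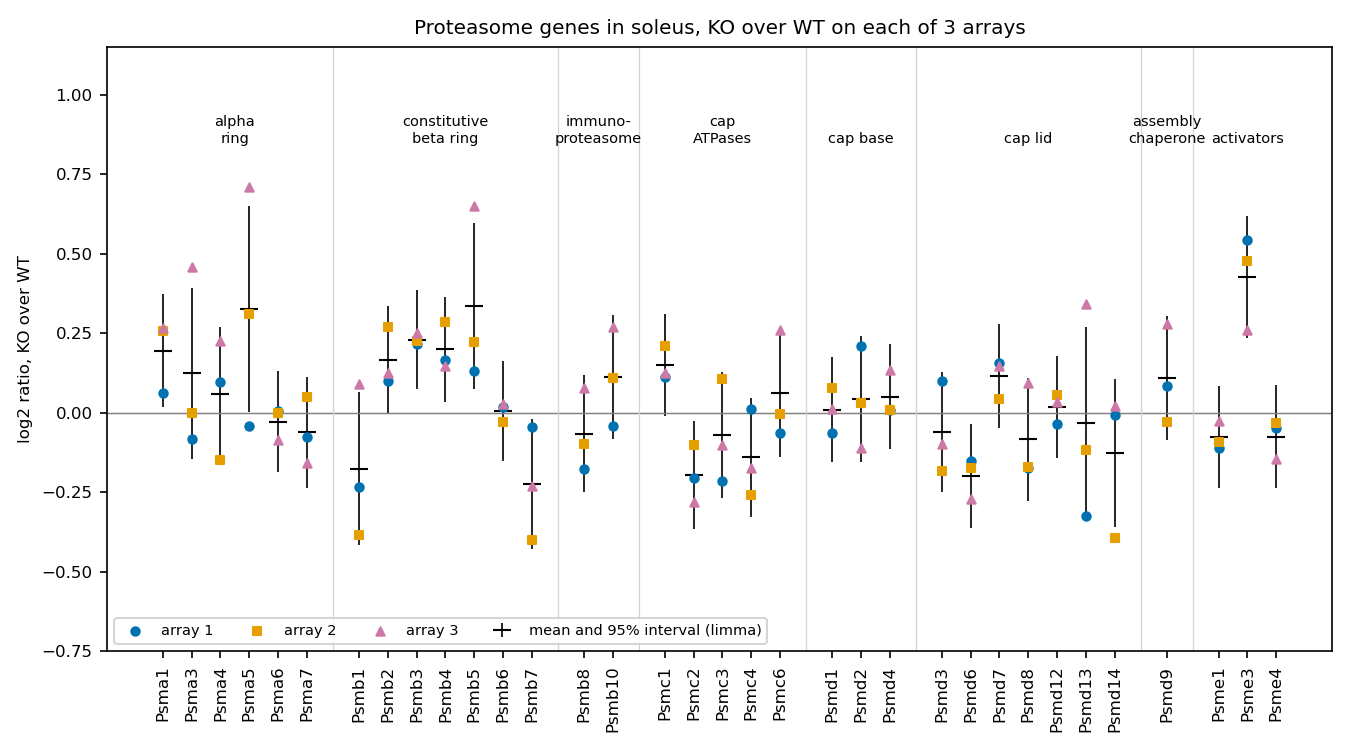
Log2 ratio of KO over WT for each of the 34 tested proteasome genes on each of 3 arrays (symbols), with the mean and the 95% limma interval (bar), grouped by role. Psme3 has the highest mean, 0.43, with its array values at 0.54, 0.48 and 0.26, and no gene passed the adjusted threshold.

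The core is built from alpha and beta rings. The median log2 ratio was 0.12 over 13 tested of 14 core genes and -0.03 over 15 tested of 17 cap genes, and neither group was tested against the other. The part of position on the array in these medians was not tested. Centred without the intensity fit, the medians of the alpha and constitutive beta rings turned to -0.12 and -0.23. Of the alpha ring, whose subunits form the gate of the barrel, 6 of 7 genes were tested, with a median of 0.09 and medians of -0.02, 0.02 and 0.25 on arrays 1 to 3. Without array 3 the median was 0.0014, over all 7 genes, since Psma2 could then be tested. Psma1 read 0.06, 0.26 and 0.27 on arrays 1 to 3 (mean 0.19, SD 0.12, n = 3, limma adjusted p = 0.329). All its values lay above 0. Psma5 read -0.04, 0.31 and 0.71, with a mean of 0.33 (SD 0.38, n = 3, limma adjusted p = 0.367). Psma3 read -0.08, -0.00 and 0.46, with a mean of 0.12 (SD 0.29, n = 3, limma adjusted p = 0.692). In both the value of array 3 stood highest, and without that array the means were 0.13 for Psma5 and -0.04 for Psma3, although both probes lie in the right-hand columns. The remaining tested alpha genes, Psma4, Psma6 and Psma7, had means of 0.06, -0.03 and -0.06. Psma2 was not tested, because its spot on array 3 carried an outlier flag, and it read 0.20 and 0.52 on arrays 1 and 2.

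All 7 constitutive beta genes were tested, with a median of 0.16 and medians of 0.10, 0.22 and 0.12 on the arrays. Psmb3, a structural beta subunit, read 0.21, 0.22 and 0.25 (mean 0.23, SD 0.02, n = 3, limma adjusted p = 0.212). It had a narrow spread between arrays but not between ways of processing, with 0.0032 from the processed signals, -0.0087 with no background subtraction, 0.06 with an offset of 16 and -0.51 when centred without the intensity fit. Psmb4, which completes the ring in assembly, read 0.17, 0.28 and 0.15 (mean 0.20, SD 0.07, n = 3, limma adjusted p = 0.295). Psmb5, the chymotrypsin-like catalytic subunit, read 0.13, 0.22 and 0.65 (mean 0.33, SD 0.28, n = 3, limma adjusted p = 0.270). Its second probe, in the affected columns of array 3, read 0.01 and -0.05 on arrays 1 and 2. These values lie near 0, smaller than those of the first probe, and differ from it in sign on array 2 alone. Without array 3 the mean of the first probe was 0.18. On array 3 the log2 intensity of that second probe departed from the others by -3.94. Psmb7, the trypsin-like catalytic subunit, read -0.04, -0.40 and -0.23 (mean -0.22, SD 0.18, n = 3, limma adjusted p = 0.329). The KO and WT channels did not overlap for Psmb7, with KO below, nor for Psmb2, with KO above. Each is 1 of 34 members, or 2.94%, against 3.14% of all genes with KO below and 3.8% with KO above. The other constitutive genes, Psmb1, Psmb2 and Psmb6, had means of -0.18, 0.16 and 0.00.

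The immunoproteasome genes encode the catalytic subunits that replace constitutive ones under interferon, and 2 of 3 were tested, with a median of 0.02. Psmb8, which replaces Psmb5, read -0.18, -0.10 and 0.08 (mean -0.07, SD 0.13, n = 3, limma adjusted p = 0.774), and its mean over arrays 1 and 2 was -0.14. Its processed WT signals were 1277, 973 and 66.3, and its processed KO signals were 1016, 892 and 148, so array 3 was darker in both channels. Psmb10, which replaces Psmb7, read -0.04, 0.11 and 0.27 (mean 0.11, SD 0.15, n = 3, limma adjusted p = 0.616). It was dim, with processed signals of 283, 184 and 93.1 in WT and 252, 296 and 237 in KO. On array 3 its WT signal was not well above background, so it was tested through the KO channel alone. Psmb9 was not tested, as it was not well above background on all arrays. On each array the ratio of Psmb8 was below that of Psmb5, by -0.31, -0.32 and -0.57 (mean -0.40, SD 0.15, n = 3). That of Psmb10 was above that of Psmb7 by 0.00, 0.51 and 0.50 (mean 0.34, SD 0.29, n = 3). The pairs went opposite ways, the values of Psmb8 and Psmb10 on array 3 being near background, and an exact sign-flip permutation over 3 arrays cannot give a p below 0.25. From the processed signals the first difference was 0.00, and centred without the intensity fit it was 0.17. In the annotation Psmb9, Tap1, Psmb8 and Tap2 neighbour each other, the Tap genes encoding the transporter that carries proteasome peptides to class I molecules.

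**Figure D3:**
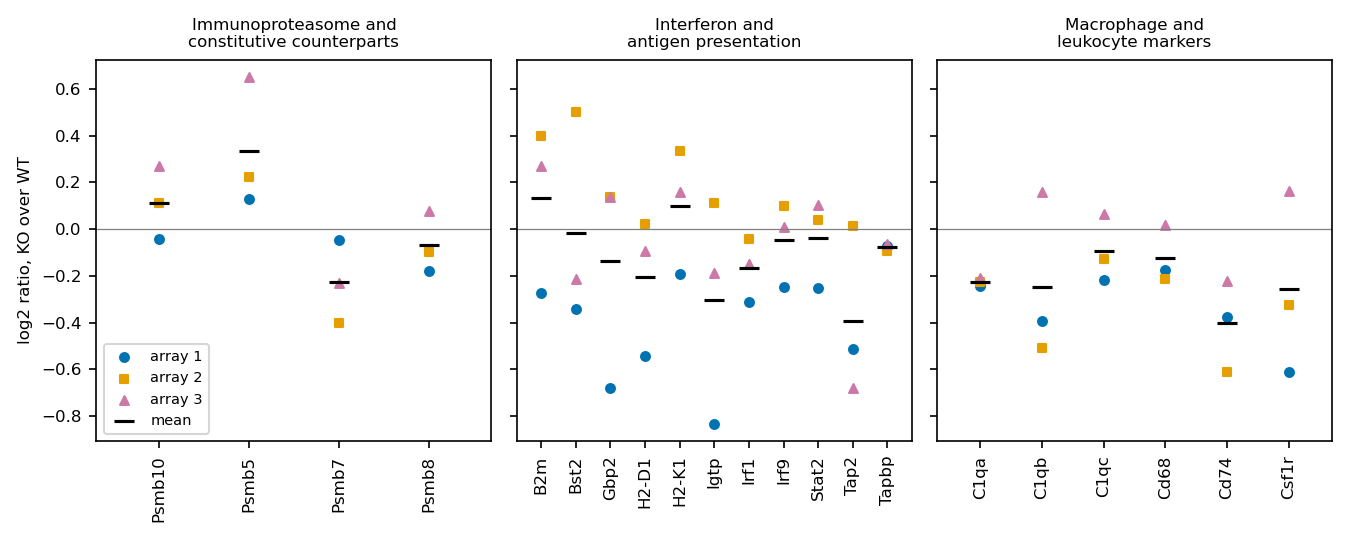
Log2 ratio of KO over WT on each of 3 arrays (symbols) and the mean (bar) for Psmb8 and Psmb10 with the constitutive subunits they replace, for the 11 tested genes of interferon response and antigen presentation, and for the 6 tested macrophage and leukocyte markers. Array 1 is the lowest in most of the interferon genes, and all 6 macrophage means lie below 0.

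Of 22 genes of interferon response and antigen presentation, 11 were tested and 0 passed. Their median was -0.08, with -0.31, 0.10 and -0.06 on arrays 1 to 3. At an unadjusted p under 0.05, 0 of the 11 were higher and 1 lower, against 5.9% and 7.53% of all genes. The 3 of smallest p were Tap2, which read -0.51, 0.01 and -0.68 (mean -0.39, SD 0.36), Irf1, an interferon-induced transcription factor, which read -0.31, -0.04 and -0.15 (mean -0.17, SD 0.14), and Igtp, an interferon-induced GTPase, which read -0.83, 0.11 and -0.19 (mean -0.30, SD 0.48), each with n = 3. Array 1 was the lowest for Irf1 and Igtp and array 3 for Tap2. Leukocytes express these genes and the immunoproteasome. The 6 tested of 11 macrophage and leukocyte markers had a median of -0.24 and all had a mean below 0, with 0 passing the adjusted threshold. The processed signals summed over all 11 markers, untested ones included, were 16184, 10500 and 7811 in WT on arrays 1 to 3. In KO they were 11116, 7542 and 7021, so the sum was lower in KO on each array. The median log2 ratios of the 6 tested markers were -0.31, -0.27 and 0.04, and on array 3 the ratios of C1qb, C1qc, Csf1r and Cd68 lay above 0. Ptprc and Lyz2 were not well above background on any array, and 5 of 7 lymphocyte markers were not either. In bulk muscle fewer cells of a type and less RNA per cell cannot be told apart, and the part of these cells in the immunoproteasome values was not tested.

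In the cap, the ATPase ring unfolds substrates, and 5 of its 6 genes were tested, with a median of -0.07. Psmc2 read -0.21, -0.10 and -0.28 (mean -0.20, SD 0.09, n = 3, limma adjusted p = 0.307). Its second probe read -0.31, -0.24 and 0.06 (mean -0.16), so the probes differ on array 3, where both lie in the left columns. Psmc1 read 0.11, 0.21 and 0.12 (mean 0.15, SD 0.05, n = 3, limma adjusted p = 0.405), while its dimmer, untested probe read 0.06, -0.15 and 0.03 (mean -0.02). Psmc4 read 0.01, -0.26 and -0.17 (mean -0.14, SD 0.14, n = 3, limma adjusted p = 0.506). Thus Psmc1 lay above 0 and Psmc2 below 0 on every array by the brighter probe. Psmc3 and Psmc6 had means of -0.07 and 0.06, and the second probe of Psmc3 had a mean of -0.23. Psmc5 was not tested, as it was not well above background on all arrays.

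The non-ATPase base subunits tether the cap and receive ubiquitin, and the 3 of them lay near 0 with a median of 0.04. Psmd1 read -0.06, 0.08 and 0.01 (mean 0.01, SD 0.07, n = 3, limma adjusted p = 0.971). Psmd2, which docks shuttle factors, read 0.21, 0.03 and -0.11 (mean 0.04, SD 0.16, n = 3, limma adjusted p = 0.877). Psmd4, a ubiquitin receptor, read 0.01, 0.01 and 0.14 (mean 0.05, SD 0.07, n = 3, limma adjusted p = 0.808), and 0.01 over arrays 1 and 2 alone. Its processed WT signals were 9128, 10962 and 36.4, so array 3 read near background for it.

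The lid carries the deubiquitinase, and 7 of 8 genes were tested, with a median of -0.06 and medians of -0.04, -0.17 and 0.03 on the arrays. Psmd6, a structural subunit of the lid, read -0.15, -0.17 and -0.27 (mean -0.20, SD 0.06, n = 3, limma adjusted p = 0.289). All 3 values lay below 0. Psmd7, the partner of the deubiquitinase, read 0.16, 0.04 and 0.15 (mean 0.12, SD 0.06, n = 3, limma adjusted p = 0.529). Psmd14, the deubiquitinase itself, read -0.01, -0.39 and 0.02 (mean -0.13, SD 0.23, n = 3, limma adjusted p = 0.642), and array 2 alone stood below the others. Psmd3 read 0.10, -0.18 and -0.10 (mean -0.06), with processed WT signals of 13946, 15749 and 124, and its mean over arrays 1 and 2 was -0.04. Psmd12 read -0.04, 0.06 and 0.03 (mean 0.02), and its dimmer probe 0.03, -0.15 and 0.06 (mean -0.02). Psmd8 and Psmd13 had means of -0.08 and -0.03. Psmd11 was flagged on array 3, where the log2 intensity of its spot exceeded the others by 3.22, and read -0.04 and -0.61 on arrays 1 and 2. Of the cap assembly chaperones, only Psmd9 was tested, reading 0.08, -0.03 and 0.28 (mean 0.11, SD 0.16, n = 3, limma adjusted p = 0.622), while Psmd5 and Psmd10 were not well above background on all arrays.

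The activators gave the member with the largest ratio, and of 4 genes 3 were tested. Psme3, the nuclear activator that feeds the core without ubiquitin, had processed WT signals of 1292, 1194 and 1734 and processed KO signals of 2145, 1893 and 2282. Its log2 ratios were 0.54, 0.48 and 0.26, with a mean of 0.43 (95% interval 0.23 to 0.62, SD 0.15, n = 3, 1.34-fold on the scale with offset). The KO signal was the higher on all 3 arrays. The limma p was 0.00128 before adjustment and 0.0981 after it, so Psme3 did not pass. The probe lies in column 7, on the affected side of array 3, with an intensity departure of 0.27, and without that array the mean was 0.51 with a limma adjusted p of 0.0715. It passed under a robust trended fit (adjusted p = 0.0381) and with array weights (adjusted p = 0.0449). These 2 settings called more genes, 41 and 45 of all genes higher in KO, against 0 in the fit reported here. Over all alternatives the limma adjusted p of Psme3 ran from 0.0381 to 0.9995, the highest with the channels treated as separate samples.

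Psme1, the interferon-inducible activator that works with Psme2, had 10 spots on each array, which gives a view of the spread within an array. Its ratios were -0.11, -0.09 and -0.03 (mean -0.08, SD 0.04, n = 3, limma adjusted p = 0.681). Within an array the spots ranged from -0.30 to 0.03 over the 8 unflagged spots of array 1, from -0.29 to 0.21 over the 10 spots of array 2 and from -0.21 to 0.20 over the 10 of array 3. The SD between spots of an array was 0.11, 0.17 and 0.13. On arrays 1 and 2 the spots in columns 2 to 13, flagged ones included, read above 0, and those in columns 36 to 150 below 0. On array 3 the spots in columns 2 to 13 read below 0 and the others had both signs. The spread thus went in part with position, and the part of position in single-spot members such as Psme3, in column 7, was not tested. Psme4, the nuclear activator linked to histone breakdown, read -0.05, -0.03 and -0.15 (mean -0.08, SD 0.06, n = 3, limma adjusted p = 0.691). That probe was tested through the WT channel, and its KO signal was well above background on array 1 alone. Its ratios are therefore close to a reading of background, and their sign is not a second reading of the gene. The brighter probe of Psme4 was not well above background on array 3 and read -0.28 and -0.31 on arrays 1 and 2. Without the left columns of array 3 the brighter probe gave -0.30 (limma adjusted p = 0.188). From the processed signals the mean of the tested probe was -0.99.

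No gene of the lists around the proteasome passed the adjusted threshold. Of 26 genes of proteasome assembly and regulation, 13 were tested, with a median of -0.02 and 0 called in either direction. At an unadjusted p under 0.05, 0 of the 13 were higher and 2 lower, against 5.9% and 7.53% of all genes. Rad23b, which carries ubiquitinated proteins to the cap, read -0.19, -0.19 and -0.26 (mean -0.21, SD 0.04), and Psmg1, a chaperone of alpha ring assembly, read -0.15, -0.21 and -0.17 (mean -0.18, SD 0.03), each with n = 3. Akirin2, which brings proteasomes into the nucleus, read -0.20, -0.08 and -0.05 (mean -0.11, SD 0.08). All 3 genes lay below 0 on every array, as 18.3% of all genes did, and they were picked for their small p. The factors Nfe2l1 and Nfe2l2, which drive proteasome transcription, had means of -0.07 and -0.09. Of 19 genes of ubiquitin and its activation, 11 were tested, with a median of 0.03 and 0 called. At an unadjusted p under 0.05, 0 of the 11 were higher and 1 lower, against the same shares of all genes, 5.9% and 7.53%. Uba1, the main ubiquitin-activating enzyme, read -0.15, -0.15 and -0.29 (mean -0.20, SD 0.08), and Usp7, a deubiquitinase, read 0.08, 0.08 and 0.47 (mean 0.21, SD 0.23). Uba1 lay below 0 and Usp7 above 0 on every array, as 18.3% and 17.5% of all genes did, with array 3 farthest from 0 in both.

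**Figure D4:**
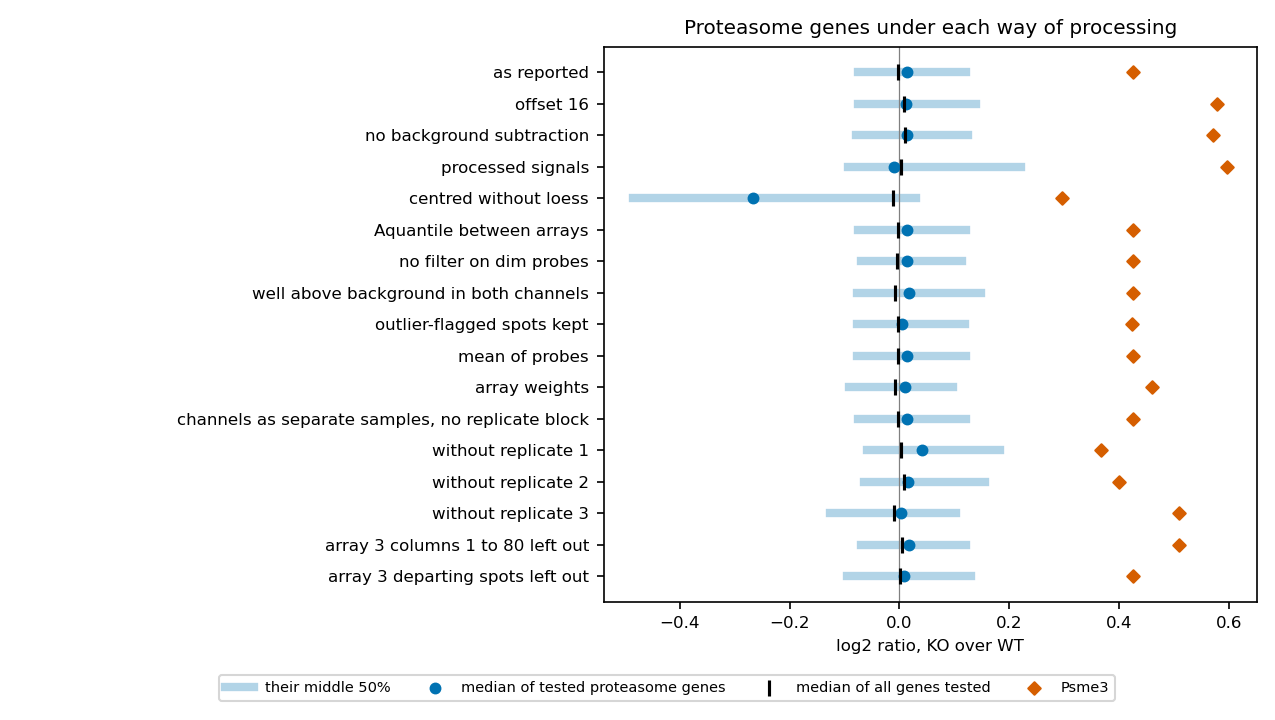
Median log2 ratio of the tested proteasome genes (circle, bar for their middle 50%), the median of all genes tested (vertical tick) and the value of Psme3 (diamond) under each way of processing. The proteasome median is near 0 except when arrays are centred without the intensity fit, where it is -0.27, and Psme3 is above 0 under all of them, from 0.30 to 0.60.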

How the data were processed

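Total RNA was labelled and hybridised to 3 dual-channel Agilent arrays, and the deposited scanner files hold the intensity of each spot in both channels. Per the file headers the scanner software was Feature Extraction 12.0.3.1, and version 11.5 is given in the submitters' processing notes. The authors' deposited matrix holds 1 log10 ratio per spot, equal to the scanner's KO over WT ratio to within 0.00499.

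Median intensities were background-corrected with normexp (offset 50, which shrinks the ratios of dim probes), fitted by loess within each array and tested with limma 3.58.1 (R 4.3.3, with the data.table package, version 1.17.8). Control and outlier-flagged spots had weight 0, and flagged spots (536, 572 and 1002 on arrays 1 to 3) were left out. Of 55681 probes, 8391 could be tested, and the brightest tested probe stood for its gene. A tested probe had a value on every array. In at least 1 channel its signal was well above background on all 3 arrays, the same channel throughout. Of 29472 probes with a RefSeq accession 28664 matched a symbol. A ratio was tested against 0 with 1 value per array, and p-values were adjusted by Benjamini-Hochberg over 7424 genes, two-sided, at 0.05. The script was tested on simulated arrays with changes of at least 1 log2 unit and without the left-column departure of array 3. That test does not cover changes as small as the member ratios here. The labels call the samples biological replicates.

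Named with their values are Mettl21c, the 3 tested genes of smallest p in each class and pathway list, members whose probes differ in sign, and, chosen after their values were seen, those affected on array 3. One gene that this rule takes from the ubiquitin list is not reported here. The members and lists were chosen with earlier results of these data known. Alternatives changed background, normalisation, filters, probe choice, moderation, threshold and arrays, and 2, leaving out the left columns or the departing spots of array 3, were added after seeing the data. Sequences are from RefSeq, GRCm38.p6.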

Additional observations from a re-analysis of the deposited data

How the results depend on the processing

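The fall of Mettl21c kept its direction (-2.21 to -6.23) under all alternatives but the filter on both channels, which left it untested. It missed the threshold with processed signals (-6.23, adjusted p = 0.0690), when dim probes were kept (-2.45, adjusted p = 0.172) and without replicate 3 (adjusted p = 0.0557), its value ranging from -2.69 to -2.21 over the left-out replicates. The array pairs 1 KO with 1 WT sample, and with the channels as separate samples and no replicate block Mettl21c gave -2.45 (limma adjusted p = 0.874) and 0 genes were called. Over all genes 3 were called, against 0 to 98 under the other settings apart from centring without the intensity fit (2658). Of the proteasome genes 1, Psme3, was called higher at an adjusted p under 0.10, with robust trended moderation and with array weights. Those settings called 60, 41 and 45 of all genes higher, against 0 in the fit reported here. Psme3 stayed above 0 under every setting (0.30 to 0.60). Centring without the intensity fit changed most: 3 members were called higher and 14 lower, the median over members was -0.27, and the class medians were -0.12 (alpha), -0.23 (beta), 0.17 (immunoproteasome), -0.51 (ATPases), -0.32 (base), -0.33 (lid), 0.35 (chaperone) and 0.23 (activators). The differences were 0.17 (Psmb8 minus Psmb5) and 1.00 (Psmb10 minus Psmb7). The signs turned for Psma3 (-0.27), Psma4 (-0.36), Psma6 (0.031), Psmb3 (-0.51), Psmb4 (-0.20), Psmb5 (-0.23), Psmb6 (-0.21), Psmc1 (-0.53), Psmd1 (-0.32), Psmd2 (-0.56), Psmd4 (-0.17), Psmd7 (-0.37), Psmd12 (-0.45), Psmd14 (0.044) and Psme4 (0.23). Processed signals gave medians of 0.055 (beta), 0.43 (immunoproteasome), 0.027 (base), 0.32 (chaperone) and -0.11 (activators), and differences of 0.0017 and 0.84. They turned the sign of Psmb8 (0.23), Psmc1 (-0.012), Psmd2 (-0.16), Psmd7 (-0.064) and Psmd12 (-0.12). With no background subtraction the beta median was 0.078 and the Psmb8 difference -0.23, and Psma6 (0.014), Psmb3 (-0.0087), Psmb8 (0.022), Psmc1 (-0.036), Psmd2 (-0.08), Psmd12 (-0.0019) and Psmd13 (0.013) turned. An offset of 16 gave a beta median of 0.062 and turned Psmd2 (-0.039), Psmd12 (-0.00044) and Psmd13 (0.0032). The ATPase median was -0.14 for the mean of probes and -0.0037 with dim probes kept. The base median was 0.031 with array weights, 0.026 with flagged spots kept and 0.026 with both channels required, and the activator median -0.059 with weights and 0.17 with both channels. Psmb6 turned with weights (-0.0038). Leaving out columns 1 to 80 of array 3 gave 0.0039 (ATPases), 0.0094 (base) and -0.056 (activators), turned Psmb6 (-0.0068) and called 0 members. Leaving out only its departing spots moved the base median to 0.0094. Over the left-out replicates the medians ranged from 0.0014 to 0.16 (alpha), 0.026 to 0.18 (chaperone), -0.08 to 0.0023 (ATPases), 0.0081 to 0.049 (base), -0.17 to 0.00011 (lid) and -0.10 to -0.06 (activators). Without replicate 3, 40 members were tested in place of 34, Psma2 and Psmd11 among those added, so its medians cover more genes. The genes that turned ranged from -0.042 to 0.23 (Psma3), -0.026 to 0.16 (Psma4), -0.045 to 0.0014 (Psma6), -0.0068 to 0.022 (Psmb6), -0.16 to 0.0023 (Psmc3), -0.035 to 0.13 (Psmc6), -0.025 to 0.046 (Psmd1), -0.041 to 0.12 (Psmd2), -0.14 to 0.00011 (Psmd3), -0.0011 to 0.046 (Psmd12), -0.22 to 0.11 (Psmd13) and -0.20 to 0.0065 (Psmd14). The cause of these changes was not tested. With 3 arrays of 1 dye orientation, signal over background limits the dim members (Psmb2, Psmb10, Psmd9, Psmd14 and Psme4).
 Centring without the intensity fit changed most: 3 members were called higher and 14 lower, the median over members was -0.27, and the class medians were -0.12 (alpha), -0.23 (beta), 0.17 (immunoproteasome), -0.51 (ATPases), -0.32 (base), -0.33 (lid), 0.35 (chaperone) and 0.23 (activators). The differences were 0.17 (Psmb8 minus Psmb5) and 1.00 (Psmb10 minus Psmb7). The signs turned for Psma3 (-0.27), Psma4 (-0.36), Psma6 (0.031), Psmb3 (-0.51), Psmb4 (-0.20), Psmb5 (-0.23), Psmb6 (-0.21), Psmc1 (-0.53), Psmd1 (-0.32), Psmd2 (-0.56), Psmd4 (-0.17), Psmd7 (-0.37), Psmd12 (-0.45), Psmd14 (0.044) and Psme4 (0.23). Processed signals gave medians of 0.055 (beta), 0.43 (immunoproteasome), 0.027 (base), 0.32 (chaperone) and -0.11 (activators), and differences of 0.0017 and 0.84. They turned the sign of Psmb8 (0.23), Psmc1 (-0.012), Psmd2 (-0.16), Psmd7 (-0.064) and Psmd12 (-0.12). With no background subtraction the beta median was 0.078 and the Psmb8 difference -0.23, and Psma6 (0.014), Psmb3 (-0.0087), Psmb8 (0.022), Psmc1 (-0.036), Psmd2 (-0.080), Psmd12 (-0.0019) and Psmd13 (0.013) turned. An offset of 16 gave a beta median of 0.062 and turned Psmd2 (-0.039), Psmd12 (-0.00044) and Psmd13 (0.0032). The ATPase median was -0.14 for the mean of probes and -0.0037 with dim probes kept. The base median was 0.031 with array weights, 0.026 with flagged spots kept and 0.026 with both channels required, and the activator median -0.059 with weights and 0.17 with both channels. Psmb6 turned with weights (-0.0038). Leaving out columns 1 to 80 of array 3 gave 0.0039 (ATPases), 0.0094 (base) and -0.056 (activators), turned Psmb6 (-0.0068) and called 0 members. Leaving out only its departing spots moved the base median to 0.0094. Over the left-out replicates the medians ranged from 0.0014 to 0.16 (alpha), 0.026 to 0.18 (chaperone), -0.080 to 0.0023 (ATPases), 0.0081 to 0.049 (base), -0.17 to 0.00011 (lid) and -0.10 to -0.060 (activators). Without replicate 3, 40 members were tested in place of 34, Psma2 and Psmd11 among those added, so its medians cover more genes. The genes that turned ranged from -0.042 to 0.23 (Psma3), -0.026 to 0.16 (Psma4), -0.045 to 0.0014 (Psma6), -0.0068 to 0.022 (Psmb6), -0.16 to 0.0023 (Psmc3), -0.035 to 0.13 (Psmc6), -0.025 to 0.046 (Psmd1), -0.041 to 0.12 (Psmd2), -0.14 to 0.00011 (Psmd3), -0.0011 to 0.046 (Psmd12), -0.22 to 0.11 (Psmd13) and -0.20 to 0.0065 (Psmd14). The cause of these changes was not tested. With 3 arrays of 1 dye orientation, signal over background limits the dim members (Psmb2, Psmb10, Psmd9, Psmd14 and Psme4).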
